A study of Mus musculus with 14 samples.

Results

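Reelin, its receptors and the proteins that carry its signal into the cell were followed as 9 genes of the 41381 in the table. They are Reln (the ligand), Lrp8 and Vldlr (the receptors), Dab1 (the adaptor), Fyn and Src (the kinases of Dab1), Crk and Crkl (adaptors that bind phosphorylated Dab1) and Rapgef1 (an exchange factor for Rap1). All 9 were found by symbol through their Ensembl identifiers. Reln was chosen from these libraries, with its lower level in mutants already known, so its values are given as a description without a test. The other 8 were chosen by their roles, with earlier results of these data known, and were tested. RNA was sequenced from granule neuron progenitors (GNPs), the proliferating precursors of cerebellar granule neurons, freshly isolated without culture from mouse cerebella at postnatal day 7. The WT group (5 libraries) came from Chd7 wild type or Atoh1-Cre negative pups, the Het group (5 libraries) from Atoh1-Cre::Chd7 f/+ pups (labelled Chd7 het mutant in the earlier deposit), and the Hom group (4 libraries) from Atoh1-Cre::Chd7 f/f pups (Chd7 hom mutant). The study writes the WT genotype of its granule cell preparations as Chd7 f/f, without Cre. The strain is given as C56Bl6/J for the earlier 7 libraries and C57BL/6 for the later 7. Cre under Atoh1 acts mainly in the granule lineage, so most other cell types in the preparation keep intact Chd7, and the study describes residual Chd7 in the posterior cerebellum. The labels do not state whether the libraries of a group are separate animals or litters, so p-values measure the spread between these libraries, which may be technical.

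Values are TPM, shares of a library's transcripts after correction for transcript length, scaled to 1 fixed total in each library. They keep no record of read depth. The depth behind each value is therefore unknown. The libraries were sequenced in 2 batches: WT 1 to 3, Het 1 to 3 and Hom 1 and 2 in batch 1, the remaining 6 in batch 2. All 9 progenitor markers, Atoh1 among them (20.8 to 50.6 TPM), were above the filter, and their summed level was 2492 to 3437 TPM. Markers of other cells were present too: 8 Bergmann glia and astrocyte markers summed to 309 to 1836 TPM, 5 oligodendrocyte lineage markers to 506 to 1362, and 8 Purkinje cell markers to 26.4 to 103. Chd7 itself was at 120.81, 151.68, 132.41, 203.25 and 272.06 TPM in WT 1 to 5, at 165.77, 181.3, 150.35, 149.36 and 136.77 in Het 1 to 5, and at 172.49, 185.39, 149.87 and 125.63 in Hom 1 to 4. Within batch 1 the Hom libraries held more Chd7 transcript than the WT libraries, against the labels, and within batch 2 they held less. Gene-level TPM covers all exons of Chd7, so it is no check of the deletion; the study also measured Chd7 by qRT-PCR, which was not analysed here. The groups are accordingly the libraries labelled WT, Het and Hom.

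Reelin is a large secreted glycoprotein that guides the placement of migrating neurons. In the developing cerebellum the granule lineage is a main source, and Purkinje cells, which carry the receptors and Dab1, are the best known responders; in reeler mice, which lack reelin, Purkinje cells stay in deep clusters and the cerebellum is small. Binding of reelin clusters Lrp8 (also called ApoER2) and Vldlr, which lets Fyn and Src phosphorylate Dab1. Crk and Crkl then dock on Dab1 and bring Rapgef1, which activates Rap1, while phosphorylated Dab1 is marked for degradation through Cul5.

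Because Reln was the member with the lowest mutant level relative to WT, the sequence directly before its start is shown. RefSeq promoters were found for all 9 members. The 250 bases upstream of the Reln start (RefSeq, GRCm38.p6, chr5:22344706-22344955, minus strand) read as follows, 5′ to 3′, with the matches to GGGCGG and CACGTG in capitals.
Reln: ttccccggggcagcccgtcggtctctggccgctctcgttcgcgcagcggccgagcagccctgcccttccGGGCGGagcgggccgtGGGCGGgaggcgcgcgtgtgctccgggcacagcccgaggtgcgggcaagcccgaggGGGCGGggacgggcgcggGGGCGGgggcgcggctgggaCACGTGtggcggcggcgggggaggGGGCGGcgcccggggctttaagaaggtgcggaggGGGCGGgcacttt
The stretch was 80.0% G or C and held 37 CpG dinucleotides, against medians of 52.4% and 6 over the 32851 RefSeq mouse promoters of this length. A search on both strands, with motifs picked after the sequence was seen, gave 6 matches to GGGCGG (reverse complement CCGCCC) and 1 to CACGTG, none of them overlapping. Of all promoters, 32.7% held GGGCGG and 6.02% held CACGTG. The motifs CAGCTG and CAGATG, found in 13% and 14.4% of promoters, were not in this window. Among the other 8 members GGGCGG was in the windows of Vldlr, Dab1, Fyn, Src and Crk, and CACGTG in none. These are letter matches, and neither protein binding nor chromatin was analysed here.

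The levels of the members in WT spanned a wide range. Reln was the most abundant, at 292 ± 28.4 TPM (SD, n = 5), and ranked 474 among all 41381 genes. Fyn followed at 192 ± 24.0 TPM, then Rapgef1 at 105 ± 30.0, Crk at 95.9 ± 15.4, Crkl at 58.1 ± 5.43 and Src at 41.3 ± 5.71. The receptors were lower, Lrp8 at 30.7 ± 6.76 TPM and Vldlr at 17.9 ± 4.88, and Dab1 was lowest at 9.01 ± 1.51 (all SD, n = 5). Thus the transcript of the ligand stood far above those of its receptors and adaptor. Most neighbours in this order were apart in every WT library. The WT ranges overlapped for Rapgef1 and Crk, where Rapgef1 was higher in 2 of 5 WT libraries, for Src and Lrp8, and for Lrp8 and Vldlr, although Src exceeded Lrp8 and Lrp8 exceeded Vldlr within each of the 5 WT libraries. The order of 3 neighbouring pairs differed in the mutants. Reln exceeded Fyn in 5 of 5 WT, 4 of 5 Het and 1 of 4 Hom libraries, Src exceeded Lrp8 in 5, 3 and 1 of them, and Rapgef1 exceeded Crk in 2, 4 and 4.

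**Figure D1:**
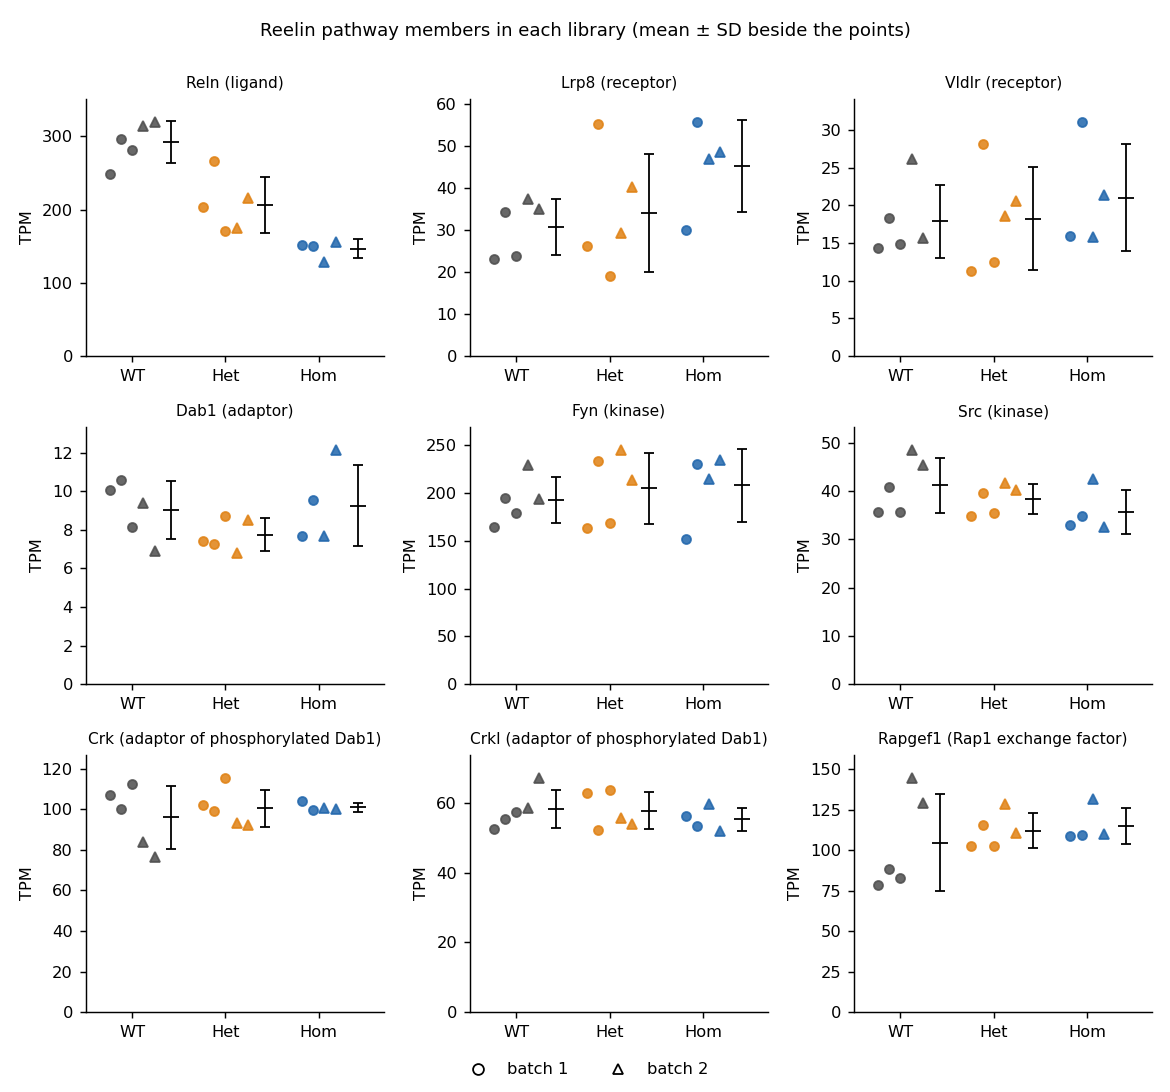
TPM (vertical axes, starting at 0) of the 9 members in each library by genotype, with circles for batch 1, triangles for batch 2, and the mean ± SD beside the points (n = 5 WT, 5 Het, 4 Hom). Reln lies at 248.82 to 319.3 in WT and 128.4 to 156.45 in Hom, while the groups overlap for each of the other 8 genes.

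Reln (ENSMUSG00000042453; GRCm38 chromosome 5, 21884454 to 22344702, minus strand) was at 248.82, 296.77, 281.61, 314.18 and 319.3 TPM in WT 1 to 5. It was at 203.97, 267.06, 171.18, 175.37 and 215.69 TPM in Het 1 to 5, and at 152.32, 149.79, 128.4 and 156.45 in Hom 1 to 4. All Hom libraries lay under all WT and all Het libraries, and the Het range reached into the WT range only through Het 2. Ranges of Hom and WT did not overlap for 4.87% of all 17325 genes tested, nor those of Hom and Het for 2.16%; as Reln was picked on this contrast, nothing is read from its place among them. The Hom mean, 147 ± 12.5 TPM (SD, n = 4), was 50.2% of the WT mean, and the Het mean, 207 ± 38.6 TPM (SD, n = 5), was 70.7% of it. On the log2(TPM + 1) scale, with genotype and batch in the model, Hom differed from WT by -0.99 (SE 0.12), Het from WT by -0.51 (SE 0.11) and Hom from Het by -0.48 (SE 0.12). The WT libraries are common to the Hom and Het differences. In batch 1 alone the differences from WT were -0.86 (SE 0.17) in Hom and -0.38 (SE 0.15) in Het, and in batch 2 alone -1.15 (SE 0.14) and -0.70 (SE 0.14).

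In whole preparations such as these, fewer Reln-expressing cells and less Reln RNA per cell cannot be told apart. The 9 progenitor markers summed to 2492 to 3437 TPM in WT, 2829 to 3029 in Het and 2757 to 3154 in Hom. Within batch 1 both Hom libraries (2757 and 2878) lay above every WT library (2492 to 2584), and within batch 2 both (2860 and 3154) lay below both WT libraries (3278 and 3437). Among these markers Ccnd1, a cyclin of proliferating cells, was called higher in Hom (0.80, limma adjusted p 0.000111), and the other 8 were not called. Of all genes tested, 1.27% were called higher. The 7 granule neuron markers summed to 1361 to 1727 TPM in WT, 1408 to 1599 in Het and 1067 to 1618 in Hom. All 4 Hom libraries lay under every WT library of their batch, at 1067 and 1237 against 1361 to 1439 in batch 1 and at 1172 and 1618 against 1626 and 1727 in batch 2. The share of all genes in this order within batches was not computed. Cntn2 (411 to 645 TPM) and Tubb3 (402 to 751 TPM) were the highest of these 7 markers. Of the 6 granule neuron markers that passed the filter, Slc17a7 and Tubb3 were called lower in Hom and Grin2c higher. Of all genes tested, 1.41% were called lower and 1.27% higher. Grin2c was low, at 0.32 to 4.89 TPM over all libraries, and the seventh marker, Gabra6, was below the filter. The 8 Bergmann glia and astrocyte markers, none of them at 0 in any library, summed to 1151 to 1836 TPM in WT and 505 to 516 in Hom of batch 1, and to 384 to 853 and 309 to 660 in batch 2. All 8 had a difference below 0 in Hom, and 0 were called. On the log2 scale, centred within batch, Reln correlated with the progenitor, granule neuron and glial sums by 0.06, 0.52 and 0.51 (Pearson r). With the endothelial sum, given below, r was -0.26. Centred within genotype and batch, these values were -0.13, -0.36, -0.14 and 0.80. The part of these cell types in the Reln difference was not tested.

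Of the 8 members that receive or relay the signal, 0 were called in any comparison at a limma adjusted p under 0.05 over all genes. The background was 2.68% of the 17325 genes in Hom against WT, 0.00577% in Het against WT and 0.427% in Hom against Het. At an unadjusted p under 0.05 there was 1 member of 8 in Hom against WT (Src), where the background was 14.9%, and 0 in Het against WT (6.08%) and in Hom against Het (6.18%). The study's kind of test, here an exact Kruskal-Wallis test of the genotypes with the batch term removed, gave 0 of 8 at an unadjusted p under 0.01, where 4.63% of all genes passed. Their median difference was 0.09 in Hom and 0.03 in Het, beside 0.02 and 0.01 for all genes tested. No member of the 8 had a Hom range or a Het range clear of the WT range, the latter being so for 1.04% of all genes.

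**Figure D2:**
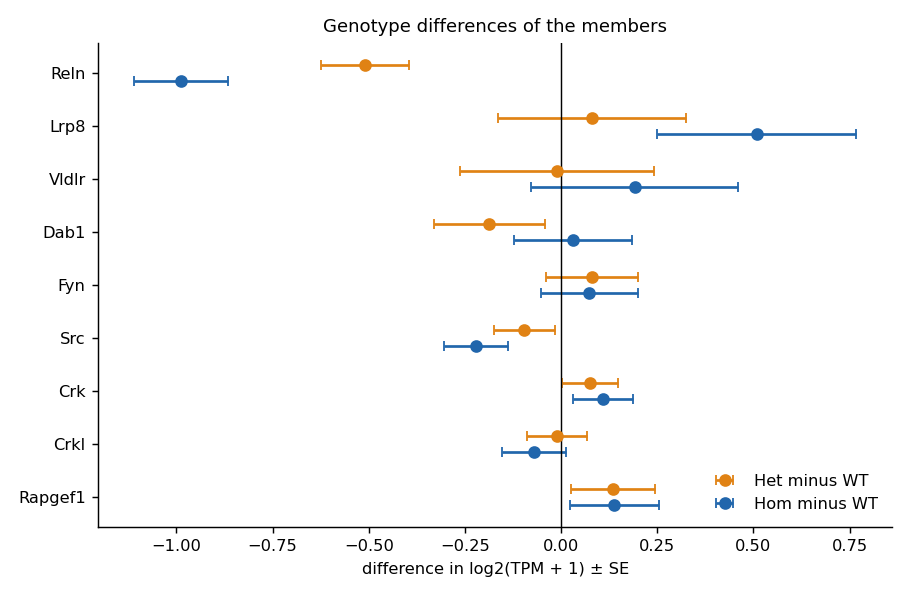
Difference in log2(TPM + 1) from WT (horizontal axis, bars ± SE) for Het (orange) and Hom (blue), from 1 model with genotype and batch over 14 libraries. Reln lies at -0.99 in Hom and -0.51 in Het, and the other members lie between -0.22 and 0.51.

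Lrp8 (ENSMUSG00000028613; chromosome 4, 107802261 to 107876840), the receptor that also acts at synapses, had the largest mean difference of the 8. Its TPM was 23.12, 34.33, 23.71, 37.38 and 35.01 in WT 1 to 5. Het 1 to 5 had 26.25, 55.12, 19.06, 29.31 and 40.35 TPM, and Hom 1 to 4 had 29.89, 55.63, 46.8 and 48.5. Of the Hom libraries 3 lay above every WT library, and Hom 1 lay within the WT range. Hom differed from WT by 0.51 (SE 0.26, limma adjusted p 0.388), with a 95% interval of -0.05 to 1.07. The corresponding values for Het were 0.08 (SE 0.24, adjusted p 0.980) and -0.44 to 0.61.

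Vldlr (ENSMUSG00000024924; chromosome 19, 27216484 to 27254231), the receptor best known for stopping neurons at their final layer, was at 14.36, 18.28, 14.92, 26.2 and 15.68 TPM in WT 1 to 5. Het 1 to 5 had 11.36, 28.23, 12.53, 18.58 and 20.61 TPM, and Hom 1 to 4 had 16.01, 31.04, 15.79 and 21.36. The highest values were those of Het 2 and Hom 2, and the other Hom libraries lay inside the WT range. The Hom difference was 0.19 (SE 0.27, limma adjusted p 0.812). That of Het was -0.01 (SE 0.25, adjusted p 0.996).

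The 6 libraries highest in Lrp8 were also the 6 highest in endothelial markers. The 5 endothelial markers summed to 22.8, 31.5, 28.4, 190 and 102 TPM in WT 1 to 5, while Het 1 to 5 had 133, 403, 19.0, 134 and 218 TPM of them. Hom 1 to 4 had 100.2, 300.2, 187 and 266 TPM. All 5 had a difference above 0 in Hom, 0 of the 5 were called, and none was at 0 in any library, Cldn5 running from 5.39 to 229 TPM. The difference of Lrp8 in Hom was 0.28 (adjusted p 0.400) without Het 2 and Hom 2, the libraries with the highest endothelial sums, and that of Vldlr was then -0.10 (adjusted p 0.813). That comparison was added after the values were seen. Het 2 and Hom 2 were also the libraries highest in Lrp8 and in Vldlr, so leaving them out is no test of endothelial RNA. Other marker sums were also high in these libraries. The 6 inhibitory interneuron markers summed to 73.4 to 121 TPM in WT, 68.4 to 120 in Het and 75.7 to 168 in Hom, highest in Hom 2, and 5 of the 6 had a difference above 0 in Hom with 0 called. The 5 oligodendrocyte lineage markers summed to 633 to 1194, 548 to 1362 and 506 to 1196 TPM, highest in Het 2, and 4 of the 5 had a difference above 0 with 0 called. The part of RNA from these cell types in the Lrp8 and Vldlr values was not tested.

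**Figure D3:**
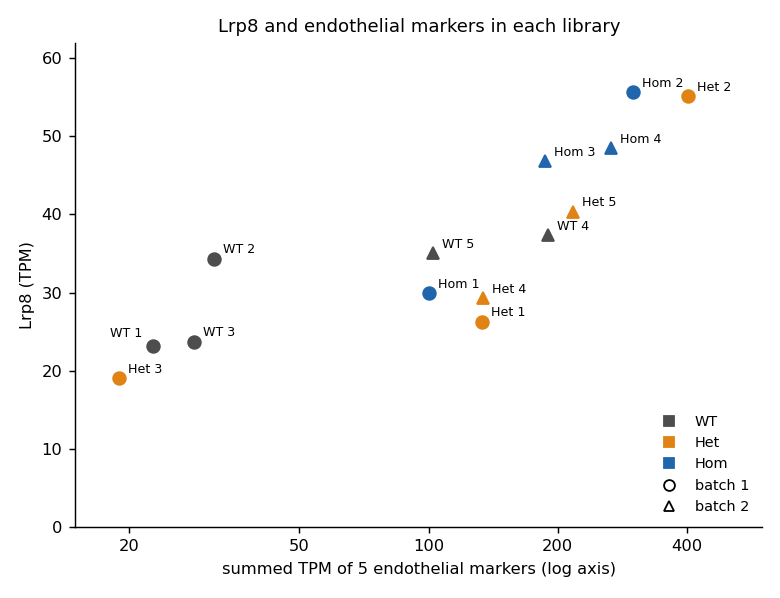
Lrp8 (TPM, vertical axis) against the summed TPM of 5 endothelial markers (log axis) in each of the 14 libraries, coloured by genotype, with circles for batch 1 and triangles for batch 2. Het 2 and Hom 2 stand highest on both axes, and Het 3 lowest on both, at 19.0 and 19.06 TPM.

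Dab1 (ENSMUSG00000028519; chromosome 4, 103619359 to 104744844), the intracellular adaptor that reelin signalling requires, was at 10.08, 10.6, 8.13, 9.37 and 6.89 TPM in WT 1 to 5. It was at 7.44, 7.26, 8.74, 6.78 and 8.53 TPM in Het, and at 7.67, 9.54, 7.68 and 12.12 in Hom. The groups overlapped throughout, with Hom 4 highest of all 14 libraries. Hom differed from WT by 0.03 (SE 0.15, 95% interval -0.30 to 0.36, limma adjusted p 0.959) and Het by -0.19 (SE 0.14, -0.50 to 0.12, adjusted p 0.884). The Purkinje cell markers, from a cell type that carries Dab1, summed to 76.9 to 103 TPM in WT 1 to 3 and to 26.4 to 57.0 in all other libraries. Among these 8 markers Pcp2 was at 0 in 1 library and Skor2 in 7, and Rora and Foxp2 were highest in Hom 2 (16.8 and 10.53 TPM). On the log2 scale, centred within batch, Dab1 correlated with the summed Purkinje cell markers over the 14 libraries (Pearson r 0.52). For Bergmann glia and astrocyte markers r was 0.54, for meninges markers 0.58 and for progenitor markers -0.61. The part of these cell types in the Dab1 values was not tested.

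Src (ENSMUSG00000027646; chromosome 2, 157418444 to 157471862) was the member with the smallest unadjusted p. It was at 35.79, 40.89, 35.71, 48.47 and 45.47 TPM in WT, 34.86, 39.59, 35.41, 41.69 and 40.25 in Het, and 32.94, 34.82, 42.48 and 32.62 in Hom. In Hom 3 of 4 libraries lay under the WT range. Hom differed from WT by -0.22 (SE 0.08, unadjusted p 0.0200, limma adjusted p 0.229), which did not pass the test. For Het the value was -0.10 (SE 0.08, adjusted p 0.889). Fyn (ENSMUSG00000019843; chromosome 10, 39368855 to 39565381), the main kinase of Dab1 in brain, was at 164.8, 194.81, 179.71, 229.49 and 193.43 TPM in WT, 163.65, 233.99, 168.9, 244.82 and 214.22 in Het, and 151.59, 230.59, 215.25 and 234.99 in Hom. Its values overlapped between the genotypes. On the log2 scale, centred within batch, they correlated with the summed oligodendrocyte lineage markers over the 14 libraries (Pearson r 0.88). The part of such RNA in the Fyn values was not tested. Hom differed from WT by 0.07 (SE 0.13, limma adjusted p 0.853), with a 95% interval of -0.20 to 0.35, and Het by 0.08 (SE 0.12, adjusted p 0.947).

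Crk (ENSMUSG00000017776; chromosome 11, 75679259 to 75706908) and its relative Crkl (ENSMUSG00000006134; chromosome 16, 17451987 to 17487434) overlap in their roles in reelin signalling. Crk was at 106.83, 100.27, 112.63, 83.77 and 76.24 TPM in WT, between 92.09 and 115.16 in Het and between 99.38 and 104.14 in Hom. The spread in Hom was small (SD 2.15 TPM, n = 4, against 15.4 in WT, n = 5). Crk differed from WT by 0.11 (SE 0.08, limma adjusted p 0.563) for Hom. Its Het value was 0.08 (SE 0.07, adjusted p 0.900). Crkl ran from 52.54 to 66.95 TPM in WT, from 52.11 to 63.77 in Het and from 52.01 to 59.53 in Hom, with differences of -0.07 (SE 0.08, adjusted p 0.761) and -0.01 (SE 0.08, adjusted p 0.990). The 95% interval of the Crkl difference in Hom was -0.25 to 0.11.

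Rapgef1 (ENSMUSG00000039844; chromosome 2, 29619720 to 29740978) was at 78.67, 88.57 and 82.5 TPM in WT 1 to 3 but at 144.19 and 129.33 in WT 4 and 5. Het 1 to 5 had 102.35, 115.61, 102.58, 128.2 and 110.39 TPM, and Hom 1 to 4 had 108.74, 109.32, 131.73 and 109.67. In batch 1 all mutant libraries lay above all WT libraries, and in batch 2 WT 4 lay above all of them. Over both batches Hom differed from WT by 0.14 (SE 0.12, limma adjusted p 0.636). Het differed by 0.13 (SE 0.11, adjusted p 0.886). Within batch 1 it was 0.39 in Hom (SE 0.08) and 0.36 in Het (SE 0.07), and within batch 2 it was -0.18 (SE 0.13) and -0.20 (SE 0.13). From batch 1 to batch 2 the Hom difference changed by -0.57 (SE 0.15, unadjusted p 0.00292, limma adjusted p 0.136). The Het difference changed by -0.55 (SE 0.14, unadjusted p 0.00259, adjusted p 0.449). Crk was the reverse, at -0.06 (SE 0.09) in Hom of batch 1 and 0.32 (SE 0.09) of batch 2, a change of 0.39 (SE 0.12, unadjusted p 0.00711, adjusted p 0.156). Of the 8 members 0 passed this interaction test in limma at an adjusted p under 0.05, where 0.0115% of all genes did for Hom and 0.00577% for Het. The summed progenitor markers showed the same break in WT, with 2492 to 2584 TPM in WT 1 to 3 and 3278 to 3437 in WT 4 and 5. Their part in the Rapgef1 and Crk values was not tested.

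TPM is scaled to transcript length, so levels of 2 genes within a library can be set against each other. The Lrp8 to Vldlr ratio had a lowest, median and highest value of 1.43, 1.61 and 2.23 in WT, 1.52, 1.95 and 2.31 in Het and 1.79, 2.07 and 2.96 in Hom. The Fyn to Src ratio was 4.25 to 5.03 in WT, 4.69 to 5.91 in Het and 4.6 to 7.20 in Hom. For Crk to Crkl the values were 1.14 to 2.03, 1.63 to 1.91 and 1.69 to 1.92. Every pair overlapped between genotypes. Log2 ratios differed from WT in Hom by 0.30 for Lrp8/Vldlr, 0.30 for Fyn/Src and 0.18 for Crk/Crkl (exact two-sided permutation within batch, p 0.10, 0.10 and 0.283; adjusted over 6 tests 0.233, 0.233 and 0.425). In Het they differed by 0.09, 0.18 and 0.09 (exact permutation p 0.550, 0.117 and 0.567; adjusted 0.567, 0.233 and 0.567). The smallest two-sided p that these permutations can give is 0.0167 for Hom. It is the same for Het, whose equal group sizes in each batch mirror every arrangement. Thus 1 ratio alone, in Hom or in Het, could not have passed the adjusted threshold.

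By group mean, ligand over receptor was ordered as Reln was, highest in WT and lowest in Hom. Within a genotype it did not always follow Reln, and Het 2, the Het library highest in Reln, had the lowest Het ratio. The TPM of Reln divided by the sum of Lrp8 and Vldlr was 6.64, 5.64, 7.29, 4.94 and 6.30 in WT 1 to 5. Het 1 to 5 had ratios of 5.42, 3.20, 5.42, 3.66 and 3.54, and Hom 1 to 4 had ratios of 3.32, 1.73, 2.05 and 2.24. All Hom libraries lay under all WT libraries, with means of 6.16 ± 0.905 in WT (SD, n = 5), 4.25 ± 1.08 in Het (SD, n = 5) and 2.33 ± 0.689 in Hom (SD, n = 4). Hom 2 was lowest and combined 149.79 TPM of Reln with the highest receptor sum, 86.7 TPM, beside 37.5 to 63.6 in WT. As Reln was chosen with its mutant level known, this ratio was not tested.

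**Figure D4:**
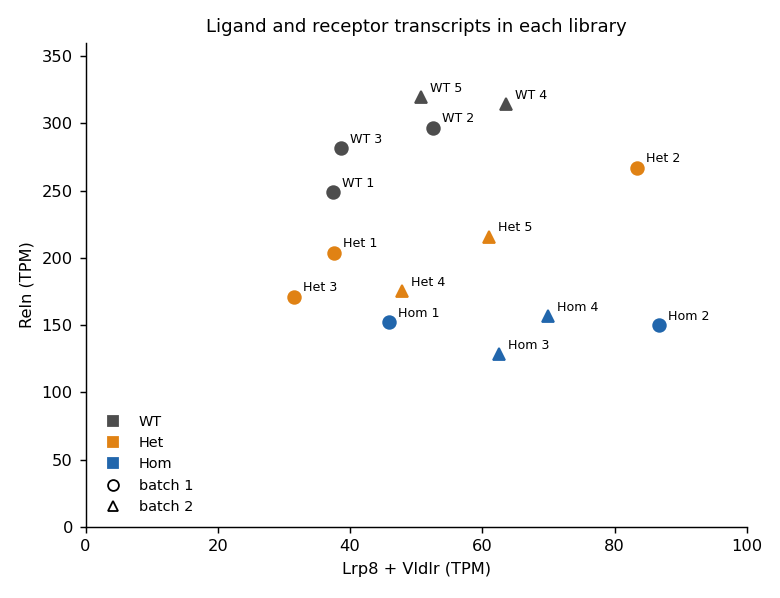
Reln (TPM, vertical axis) against the summed TPM of Lrp8 and Vldlr (horizontal axis) in each of the 14 libraries, coloured by genotype, with circles for batch 1 and triangles for batch 2; both axes start at 0. The 4 Hom libraries form the lowest band, at 128.4 to 156.45 TPM of Reln over receptor sums of 45.9 to 86.7 TPM.

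A further 77 genes that act around this core, listed with earlier results of these data known, were counted by role. Of these, 74 passed the filter (Lrp2, Lck and Fgr did not). In Hom against WT 3 were lower and 2 higher at a limma adjusted p under 0.05, or 4.05% and 2.7% of the 74, beside a background of 1.41% and 1.27% of all genes. Their median difference was 0.01 in Hom, beside 0.02 for all genes. At an unadjusted p under 0.05 there were 21 of the 74, or 28.4%, beside 14.9% of all genes. In Het against WT 0 were called in limma, with 2 at an unadjusted p under 0.05 (6.08% of all genes), and in Hom against Het 1 was lower (0.427% of all genes called). For 8 of the 74 the Hom range was clear of the WT range, beside 4.87% of all genes. By the exact Kruskal-Wallis test, 8 of the 74 had an unadjusted p under 0.01, of which 5 were lower in Hom and 3 higher, beside 4.63% of all genes. Counts at an unadjusted p under 0.05 for the single roles are for Hom against WT and stand beside the same 14.9% of all genes. They were 3 of 7 actin targets, 3 of 11 PI3K, Akt, Gsk3 and microtubule-associated targets and 2 of 7 other reelin-binding surface proteins. The Rap1 branch had 2 of 8, and the other ligands and chaperone 1 of 5. Lis1 complex genes and doublecortin had 2 of 6, and Cdk5 and its activators 1 of 3. Those of the remaining roles follow.

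**Figure D5:**
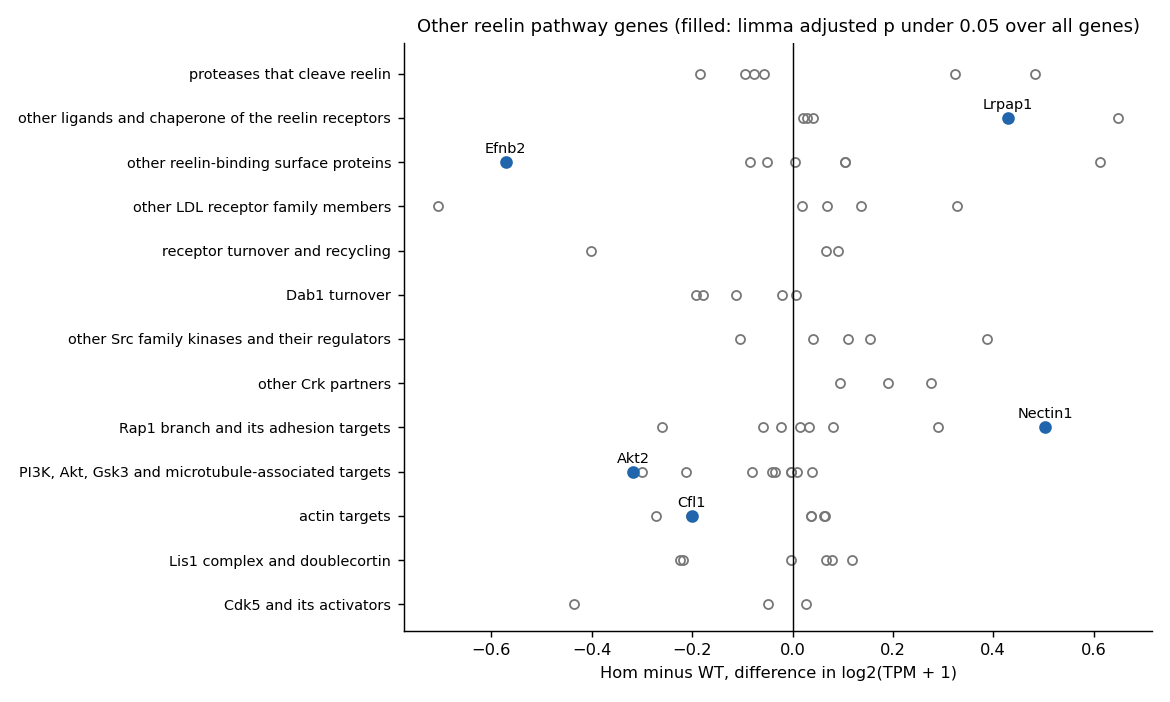
Hom minus WT in log2(TPM + 1) (horizontal axis) for the 74 tested genes around the core, 1 point a gene, in 13 rows by role; filled points were called at a limma adjusted p under 0.05. The called points are Lrpap1 and Nectin1 above 0 and Efnb2, Akt2 and Cfl1 below 0.

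Upstream of the receptors, 0 of the 6 proteases that cut reelin were called in limma (1 had an unadjusted p under 0.05). The most abundant, Plat (tissue plasminogen activator), was at 31.6 ± 6.02 TPM in WT (SD, n = 5) and 31.0 ± 10.9 in Hom (SD, n = 4). Among the other ligands of these receptors and their chaperone, 5 genes in all, the most abundant was Apoe, the lipid carrier. It was at 854 ± 279 TPM in WT and 810 ± 93.1 in Hom. The chaperone Lrpap1, which keeps receptors of the LDL receptor family from binding ligand before they reach the surface, rose. Its TPM was 130.69, 127.33, 133.24, 184.84 and 161.35 in WT, 137.98, 142.74, 147.52, 203.52 and 186.54 in Het, and 187.33, 185.22, 238.68 and 201.01 in Hom. Every Hom library lay above every WT library, and the difference was 0.43 (SE 0.07, limma adjusted p 0.00289). Het differed from WT by 0.15 (SE 0.06, unadjusted p 0.0338, adjusted p 0.767) and was not called.

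Among 7 other surface proteins reported to bind reelin, Itgb1 (integrin beta 1) was most abundant, at 166 ± 14.7 TPM in WT and 179 ± 29.7 in Hom. The ephrin ligand Efnb2 fell. It was at 20.5, 24.81, 24.49, 22.24 and 23.46 TPM in WT, 24.08, 19.94, 22.12, 20.52 and 22.77 in Het, and 17.45, 13.01, 14.39 and 16.19 in Hom. All Hom libraries were under all WT and Het libraries, whereas Het and WT were intermixed. Efnb2 differed by -0.57 from WT (SE 0.10, limma adjusted p 0.00571) and by -0.50 from Het (SE 0.10, adjusted p 0.0454), and Het from WT by -0.07 (SE 0.09, adjusted p 0.925). The related Efnb1 (0.0048, adjusted p 0.991) and Efnb3 (0.10, adjusted p 0.783) were not called.

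Of the other LDL receptor family members 0 of 5 tested were called in limma (2 unadjusted), and Lrp1, the most abundant, was at 54.6 ± 9.67 TPM in WT and 60.3 ± 5.73 in Hom. Of the 3 genes of receptor turnover and recycling 0 were called in limma (1 unadjusted). Of the 5 genes of Dab1 turnover 0 were called (2 unadjusted). The elongin subunit Elob was the most abundant of these, at 346 ± 46.3 TPM in WT and 316 ± 62.4 in Hom. The ubiquitin ligase scaffold Cul5 was at 43.1 ± 2.78 TPM in WT and 42.6 ± 8.96 in Hom.

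Downstream, 0 of 5 tested Src family kinases and regulators and 0 of 3 other Crk partners were called in limma (0 and 1 unadjusted). The most abundant were Csk, the kinase that inhibits the Src family, at 55.6 ± 9.01 TPM in WT and 58.7 ± 10.02 in Hom, and Bcar1 (p130Cas), at 117 ± 24.7 and 128 ± 25.3. In the Rap1 branch Nectin1, an adhesion molecule that Rap1 signalling couples to cadherin, rose, and the other 7 genes tested were not called. Nectin1 was at 6.86, 7.45, 6.59, 9.38 and 9.42 TPM in WT and 9.01, 9.79, 14.47 and 16.02 in Hom. The ranges overlapped across batches, and within each batch every Hom library was above every WT library. Its difference was 0.50 (SE 0.10, limma adjusted p 0.0176). The call was lost without Hom 4 (adjusted p 0.0687) and with Het 3 placed in batch 2 (0.0713). Afdn (afadin), the nectin-binding scaffold and the most abundant gene of this branch, was at 176 ± 15.7 TPM in WT and 180 ± 24.0 in Hom.

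Akt2 and Cfl1 were also called lower, by smaller amounts. Akt2, a kinase downstream of PI3K, was at 166.72, 177.83, 158.68, 184.88 and 189.96 TPM in WT and 145.59, 117.88, 165.79 and 141.74 in Hom, a difference of -0.32 (SE 0.07, limma adjusted p 0.0392) with Hom 3 inside the WT range. Akt1, the most abundant of the 11 genes in its group, was not called (247 ± 42.7 TPM in WT, 250 ± 35.4 in Hom, difference -0.0034, SE 0.07, adjusted p 0.990). Cfl1, the actin-severing protein cofilin, ran from 1680.27 to 1954.5 TPM in WT, from 1696.49 to 1914.31 in Het and from 1516.72 to 1616.32 in Hom, a difference of -0.20 (SE 0.05, adjusted p 0.0390). Each of these calls was close to the threshold. That of Akt2 was lost in 11 and that of Cfl1 in 12 of the 14 fits that left out 1 library, with adjusted p up to 0.120 and 0.122. The most abundant genes of the remaining groups, Dcx (doublecortin, 297 ± 19.3 TPM in WT and 254 ± 46.3 in Hom) and Cdk5r1 (the Cdk5 activator p35, 125 ± 24.9 and 121 ± 11.4), were not called (adjusted p 0.197 and 0.879).

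Genes whose levels followed Reln most closely over the 14 libraries were then listed, by Pearson correlation of log2(TPM + 1) centred within batch, among 12301 genes with a mean of at least 5 TPM. They were Grik2, a kainate receptor subunit (r 0.977), Hs3st5, a heparan sulphate sulphotransferase (0.956), Vegfc, a growth factor (0.954), Nkain3, which interacts with the sodium pump (0.954), and Epha3, an ephrin receptor (0.953). In all, 33 genes had r above 0.9. The libraries of a genotype share their mutation, so these values describe a common order of libraries and carry no p. Grik2 went from 90.9 ± 7.35 TPM in WT to 64.6 ± 8.45 in Het and 42.4 ± 4.54 in Hom, and Epha3 from 9.75 ± 0.974 to 4.87 ± 1.51 and 3.69 ± 0.554 (SD, n = 5, 5 and 4). The lowest correlations were those of Chrdl2, an antagonist of bone morphogenetic proteins (-0.938; 5.87 ± 1.22 TPM in WT, 18.5 ± 2.53 in Hom), and Gm27544 (-0.927; 7.15 ± 2.36 and 19.4 ± 7.20).

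The span from the annotated start to end was over 100 kb for 4 of the 9 members. Dab1 spanned 1125 kb, Reln 460.2 kb, Fyn 197 kb and Rapgef1 121 kb. Of all genes tested with a position, 12.7% spanned over 100 kb. Reln had a difference of -0.99 in Hom, and the other 3 had 0.03, 0.07 and 0.14, none of them called.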

How the data were processed

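The authors made the deposited TPM values by mapping single-end total RNA reads to the mouse transcriptome (mm10, Ensembl genes) with Bowtie 1.0.0 and estimating expression with RSEM 1.2.15, per the labels and the study's methods. Replicates were not pooled, and columns headed Con were taken for WT by their number. Each column sums to between 999999.14 and 1000000.79, TPM gives no read depth, and no columns were identical. Symbols and GRCm38 positions came from GENCODE vM21 (40340 of 41381 genes matched).

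Differences are on the log2(TPM + 1) scale, which understates changes of low genes. The model was run in limma 3.58.1 (lmFit, eBayes with trend; R 4.3.3), with genotype and batch as terms over all 14 libraries and the 17325 genes at 1 TPM or more in at least 4 libraries. P-values are two-sided, adjusted by Benjamini-Hochberg over all genes, and a gene is called when its adjusted p is under 0.05. The study used ComBat and a Kruskal-Wallis test. Here batch was a model term instead, and the rank test was an alternative. Batches follow the study's methods, although the title of Het 3 is in the style of the later deposit. Ratios were compared by exact permutation within batch. The fit was tested on simulated data.

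The members and lists were chosen with earlier results of these data known. Named genes are the 9 members, Chd7, the called pathway genes, the most abundant gene of each role in WT, and the 5 genes most and 2 least like Reln. Cul5, Efnb1, Efnb3 and the markers were named beside them, and 1 gene under this rule is not reported here. Residuals of libraries with the same number correlated by -0.23 to 0.26 over 13 pairs, and 3 pairs exceeded 0.1. Pairs with different numbers were not compared, so these values cannot decide whether the libraries are paired. The numbers were not taken to pair them, and a fit with a replicate block was run as an alternative. Alternatives changed the pseudocount (0.1 or 0.5), the filter, the scaling, the samples, the batch term, the weights or the test, or left out libraries.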

Additional observations from a re-analysis of the deposited data

Results flagged for a closer look

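A library far from the others of its group was found in 2 of the 42 groups examined (14 genes by 3 genotypes), and chance alone gives this in about 5% of groups. Rapgef1 was at 131.73 TPM in Hom 3, with the other Hom libraries at 108.74 to 109.67 TPM. Cfl1 was at 1914.31 TPM in Het 4, with the other Het libraries at 1696.49 to 1708.21 TPM. Both libraries belong to batch 2, each group pools the batches, and the 5% takes no account of this. In WT, Cfl1 averaged 1696 TPM in batch 1 and 1914 in batch 2, though Het 5, also of batch 2, was at 1696.49.

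A difference from WT that changed between the sequencing batches was found in 3 of 16 interaction tests at an unadjusted p under 0.05. None passed limma's adjustment over all genes, where 0.0115% of all genes did for Hom and 0.00577% for Het. The share of all genes at that unadjusted p was not computed, so the 3 cannot be set against a background. The difference of Rapgef1 in batch 2 minus that in batch 1 was -0.57 for Hom (unadjusted p 0.00292, adjusted p 0.136) and -0.55 for Het (unadjusted p 0.00259, adjusted p 0.449). The difference of Crk changed by 0.39 for Hom (unadjusted p 0.00711, adjusted p 0.156). Both contrasts of Rapgef1 use the same WT libraries.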

How the results depend on the processing

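The lower level of Reln kept its direction under every alternative run: the Hom difference ran from -1.15 to -0.86, and with 1 library left out from -1.04 to -0.92. Its Het difference moved by more than the spread between libraries only in batch 2 alone (-0.70). Under every alternative 0 of the 8 other members were called in limma in any contrast. The sign held under all 28 alternatives for Lrp8, Src and Crkl in Hom and for Dab1 and Src in Het, and turned under at least 1 for the other 11 differences. In batch 1 alone the sign turned for Vldlr Het (0.017), Dab1 Hom (-0.14), Crk Hom (-0.065), Crk Het (-0.015) and Crkl Het (0.11), as well as for the pathway gene Cfl1 in Het (0.0046), and in batch 2 alone for Lrp8 Het (-0.071), Vldlr Hom (-0.14), Rapgef1 Hom (-0.18) and Rapgef1 Het (-0.20). Quantile normalization turned Vldlr Het (0.0018) and Dab1 Hom (-0.011), and array weights turned Dab1 Hom (-0.039), Fyn Hom (-0.043), Fyn Het (-0.0028) and Crkl Het (0.035). Without Het 2 and Hom 2, added after seeing the data, the sign turned for Lrp8 Het (-0.17), Vldlr Hom (-0.10), Fyn Hom (-0.060), Fyn Het (-0.010) and Crkl Het (0.023). With 1 library left out the ranges that crossed 0 were -0.15 to 0.24 for Lrp8 Het, -0.068 to 0.34 for Vldlr Hom, -0.20 to 0.13 for Vldlr Het, -0.11 to 0.12 for Dab1 Hom, -0.044 to 0.19 for Fyn Hom, -0.0027 to 0.13 for Fyn Het, -0.054 to 0.043 for Crkl Het and -0.0025 to 0.14 for the Crk/Crkl ratio in Het. The cause was not tested for any of these.

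Of the other pathway genes 5 were called in Hom against WT. There were 3 with all genes above 0 TPM in at least 4 libraries, 3 with Het 3 in batch 2, 2 with only the 2 genotypes fitted, 1 without the batch term, 1 in batch 1 alone, 0 in batch 2 alone and 8 by the exact Kruskal-Wallis test, with 2 (without Hom 4) to 6 (without Hom 3) when 1 library was left out. In Hom against Het the 1 call was lost, leaving 0, with all genes above 0 TPM, with only the 2 genotypes, without the batch term, in either batch alone and without Het 2 and Hom 2. Array weights gave 2, and leaving out 1 library gave 0 to 1. The adjusted p of Lrpap1 was 0.132 without the batch term and 0.263 in batch 2 alone, and that of Efnb2 was 0.141 and 0.205 in batches 1 and 2 alone. That of Nectin1 was 0.0589 with only the 2 genotypes, 0.221 without the batch term, 0.262 and 0.223 in batches 1 and 2 alone and 0.0713 with Het 3 in batch 2.

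Replicate numbers were not taken to pair the libraries, but whether libraries of the same number shared a preparation is not known. With the replicate block 1 of the other pathway genes was called in Hom against WT and 0 in Hom against Het, Lrpap1 (adjusted p 0.0591), Efnb2 (0.0780) and Nectin1 (0.102) were not called, Reln differed by -0.94, and 0 of the 8 members were called. Over all genes the 465 calls in Hom against WT became 259 with the block, 259 with only the 2 genotypes, 162 in batch 1 alone, 4 in batch 2 alone and 287 to 489 with 1 library left out. The 1 call in Het against WT became 0 to 21, and the 74 in Hom against Het became 2 to 118, over the alternatives. No count-based limit can be given, since TPM keeps no depth.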
